A study of Mus musculus with 12 samples.

Results

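Gene expression in the jejunum of IAP knockout mice given the peptide IIAEK was compared with that of wild-type mice given the same peptide. The comparison rests on 6 of the 12 arrays in the series, 3 knockout and 3 wild type, and the arrays were chosen by the genotype and treatment that the labels give. IAP stands for intestinal alkaline phosphatase, and the knockout mice are Akp3-/-. IIAEK, also called lactostatin, is a pentapeptide from the milk protein beta-lactoglobulin, studied for its effect on blood cholesterol. The comparison asks how the jejunum differs without Akp3 while the peptide is given. The mice of both groups were male and 7 weeks old at the start, and both received IIAEK daily by mouth for 14 days, 600 mg per kg of body weight each day. They were fasted for 8 h, after which RNA of the jejunum of 1 mouse was hybridised to each array. The 6 arrays of the same 2 genotypes on vehicle, 5 g/L carboxymethylcellulose sodium salt, served as a comparison in other mice. The mouse strain and the way the null allele was made were not given in the sources used here.

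Alkaline phosphatases cleave phosphate groups from their substrates. The intestinal enzymes sit on the brush border of enterocytes and in the lumen, where they remove phosphate from bacterial endotoxin and from nucleotides, and they also respond to fat in the diet. In the mouse, Akp3 encodes a form known from the duodenum, Alpi a form made along the small intestine, Alppl2 a form known from the early embryo and the gut, and Alpl the tissue-nonspecific enzyme. The first 3 of these genes lie side by side on chromosome 1, whereas Alpl lies on chromosome 4.

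The promoters of these 3 neighbours are shown because all 3 genes were lower in the knockout on IIAEK. Each sequence is the 250 bases before the gene's start in RefSeq, 5′ to 3′ on the strand of the gene, on assembly GRCm38.p6. It lies at chr1:87124704-87124953 on the plus strand for Akp3, at chr1:87101607-87101856 on the minus strand for Alpi and at chr1:87089929-87090178 on the minus strand for Alppl2. The capitals mark the longest runs of bases that all 3 share, of which there are 2, TTCAGTTCACAGG and GGGTGGGGCCAGG.
Akp3: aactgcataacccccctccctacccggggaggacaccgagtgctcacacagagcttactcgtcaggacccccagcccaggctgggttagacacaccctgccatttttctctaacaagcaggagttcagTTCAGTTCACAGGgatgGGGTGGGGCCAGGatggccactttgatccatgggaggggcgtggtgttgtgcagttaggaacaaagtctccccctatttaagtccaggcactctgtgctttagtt
Alpi: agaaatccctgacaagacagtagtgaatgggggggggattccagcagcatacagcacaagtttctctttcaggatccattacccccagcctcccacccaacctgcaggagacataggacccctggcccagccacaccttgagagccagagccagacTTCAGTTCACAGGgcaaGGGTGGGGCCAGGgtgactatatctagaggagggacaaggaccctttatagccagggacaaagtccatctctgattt
Alppl2: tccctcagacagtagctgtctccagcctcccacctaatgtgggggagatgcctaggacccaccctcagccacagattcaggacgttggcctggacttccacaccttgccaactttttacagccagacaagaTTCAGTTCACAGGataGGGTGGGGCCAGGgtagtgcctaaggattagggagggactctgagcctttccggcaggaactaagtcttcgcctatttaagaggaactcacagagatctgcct
Each shared run is 13 bases long. TTCAGTTCACAGG begins 122 bases before the start of Akp3, 94 before that of Alpi and 119 before that of Alppl2, and it occurs on either strand in 9 of 32851 promoters of that length, or 0.0274%. GGGTGGGGCCAGG begins 105, 77 and 103 bases before the 3 starts and occurs in 15 promoters, or 0.0457%. CACCC, letters bound by factors of the KLF family, occurs 2 times before Akp3, 3 times before Alpi and 2 times before Alppl2 on either strand, and in 52% of all promoters. In each gene 1 of those matches is the start of GGGTGGGGCCAGG, read on the other strand. TTTAT, letters bound by CDX factors, occurs 1 time before Alpi and not before Akp3 or Alppl2, and in 37.3% of all promoters. These matches describe the letters of the sequence and carry no measurement.

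All levels below are log2 signals from which the array's own 75th percentile was subtracted, so that 0 is that percentile, and a difference is the knockout mean minus the wild-type mean of such levels, with n = 3 arrays per group. The signal at the 75th percentile was 612 to 816 on the 6 arrays, and Feature Extraction marked 60.2% to 67.1% of the spots as well above background. Arrays of a group correlated with r of 0.979 to 0.991 over genes in 6 pairs, and arrays of different groups with 0.965 to 0.993 in 9 pairs. The arrays lay on 2 slides, each also 1 scan: slide 1 held wild-type replicate 1 and knockout replicates 1 and 2, and slide 2 held the others. Each difference was therefore also taken within either slide. All 14 enterocyte markers examined, among them villin and the disaccharidase sucrase-isomaltase, were well above background on the 6 arrays. Of 8 stomach markers on the array, 0 were above background on all 6 arrays and 4 were on none. Of 18 exocrine pancreas markers, 15 were above background on all 6. Wild-type replicate 3 stood apart by its pancreatic transcripts and knockout replicate 3 by its immune and Paneth cell transcripts, and values without each array are given for lists and for several of their genes. P-values measure the spread between mice, estimated from all 12 arrays, those on vehicle included, unless another fit is named.

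Akp3, the targeted gene, was detected in the wild type and not in the knockout. Its level in wild-type replicates 1, 2 and 3 was -4.39, -1.61 and -1.74, and in the knockout it was -6.41, -7.33 and -7.19, with every knockout array below background. The groups did not overlap, and wild-type replicate 1 lay well below the other two. The difference was -4.40 (SE 0.78), which the detection limit bounds as at least 7.71-fold lower, and limma's adjusted p was 0.390. Here and below, such a bound sets the wild-type mean against the lowest signal that counts as above background on each dim array. A second Akp3 probe was above background on wild-type replicates 2 and 3 only, at -2.29 and -2.14, and on none of the knockout arrays. Where the probes lie relative to the deleted part of Akp3 was not given in the sources used here. Akp3 differed by -2.48 within slide 1 and by -5.52 within slide 2, and by -1.44 after another background correction, normexp, which compresses dim signals.

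The 2 neighbouring phosphatase genes were lower in the knockout as well. Alppl2 was at -2.64, -1.42 and -1.62 in the wild type and at -3.64, -4.05 and -4.03 in the knockout. Its groups did not overlap, and its difference was -2.02 (SE 0.30, adjusted p = 0.235). Without wild-type replicate 1 the difference was -2.39 and the adjusted p 0.0216. Alpi, a brightly expressed enterocyte gene, was at 5.42, 5.81 and 5.66 in the wild type and at 4.84, 4.61 and 3.99 in the knockout. These groups did not overlap either, with a difference of -1.15 (SE 0.25, adjusted p = 0.611). Within slides 1 and 2, Alppl2 differed by -1.21 and -2.52 and Alpi by -0.70 and -1.75. The direction within either slide was fixed, since groups that do not overlap differ the same way on both. Alpl overlapped between the groups, from -4.50 to -3.06 in the wild type and from -4.30 to -3.57 in the knockout, with a difference of 0.01 (SE 0.35), the sign of which changed with the scaling and with the mice included. The probes of these related genes may bind each other's transcripts, which was not tested.

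The same 3 genes had smaller differences in the mice on vehicle. There the knockout minus wild-type difference was -1.69 for Akp3, -0.28 for Alppl2 and -0.30 for Alpi. On vehicle Akp3 was at -3.81, -4.43 and -6.42 in the wild type and at -7.32, -5.96 and -6.44 in the knockout, with overlap. Wild-type replicate 3 and every knockout array were below background there. The detection limit therefore limits the vehicle difference of Akp3 and its interaction. The difference between IIAEK and vehicle in this contrast, the interaction, was -2.71 for Akp3, -1.74 for Alppl2 and -0.85 for Alpi, and no gene in the data passed an adjusted p of 0.05 in this test. A list of genes of the duodenal segment had a mean deviation of 0.14, 0.42 and 0.42 in wild-type IIAEK replicates 1, 2 and 3. In the knockout it was 0.15, -0.07 and -0.44, so the groups overlapped, unlike those of the 3 phosphatases. The list median was -0.23, or -0.09 without wild-type replicate 3 and -0.07 within slide 1. In that list 7 of 9 genes were lower in the knockout, with Pdx1, a transcription factor of the duodenum and pancreas, at -1.96. The part of the position along the gut in the phosphatase differences was not tested.

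**Figure D1:**
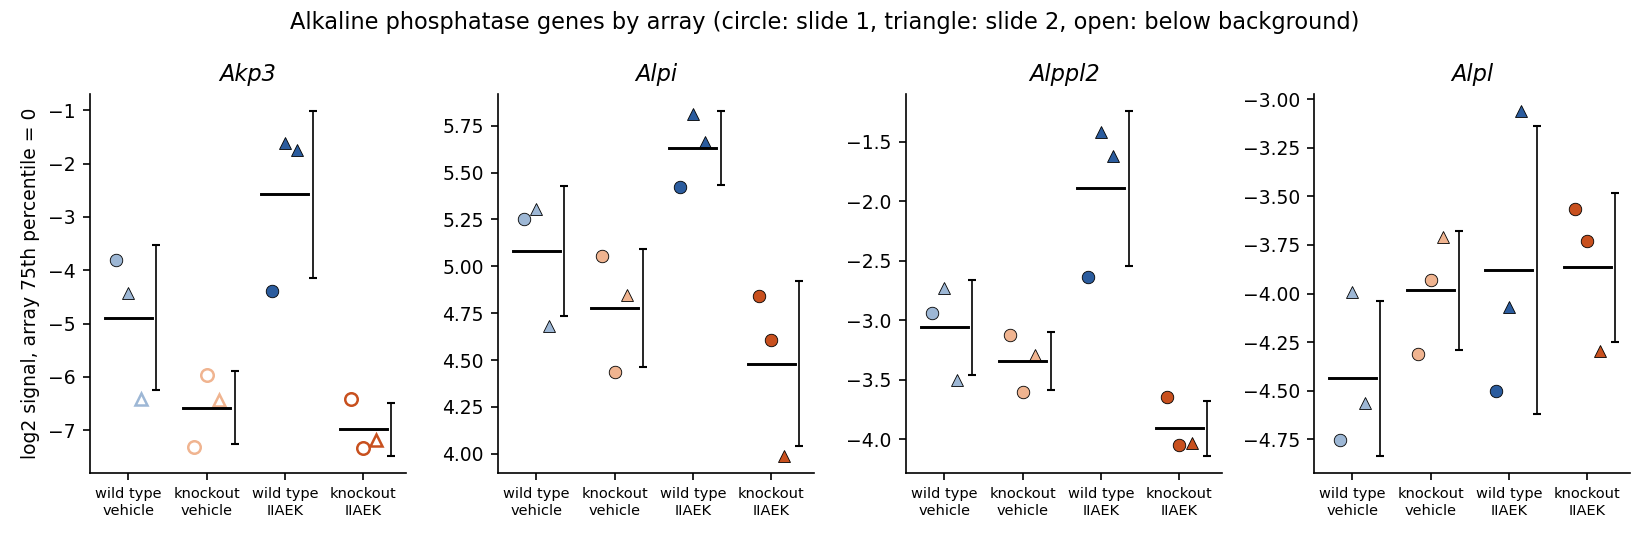
Levels of the 4 alkaline phosphatase genes on all 12 arrays, as log2 signal relative to the array's 75th percentile; circles are slide 1, triangles slide 2, open symbols lie below background, bars are group means and whiskers SD (n = 3). On IIAEK the knockout arrays lie below the wild-type arrays for Akp3, Alpi and Alppl2, and the groups overlap for Alpl.

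Across all genes, 0 of 27555 tested (0%) passed an adjusted p of 0.05 in limma's test, and the smallest adjusted p was 0.138. At an unadjusted p under 0.05 there were 2110 genes, 7.66% of those tested, of which 1196 were higher in the knockout (4.34%) and 914 lower (3.32%). The 3 knockout arrays lay above the 3 wild-type arrays for 1520 genes (5.52%) and below them for 1067 (3.87%). The difference was above 0 for 53% of genes and below 0 for 47%, with a median of 0.02 and with 5% of genes below -0.50 and 5% above 0.51. None of the differences described from here on passed the threshold unless a sentence says so, and the counts at an unadjusted p under 0.05 are to be read against these shares. Of 21 other fits, 15 also passed no gene and 6 passed 1 to 4. A fit to the 6 IIAEK arrays alone passed Pam (adjusted p = 0.00896), Cfap100 (0.0127), Glrp1 (0.0441) and 1 probe with no gene name.

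Of the 20 characterised genes with the smallest p, 10 in each direction, 8 lie on chromosome 1, the targeted Akp3 itself and Alppl2 among them. Chromosome 1 holds 5.75% of the tested genes with a known position. Glrp1, a glutamine-repeat protein gene, had the smallest p in the comparison. It was at -5.25, -4.83 and -5.24 in the wild type and below background in the knockout at -7.23, -7.54 and -7.96. The groups did not overlap, and the difference was -2.47 (SE 0.31, adjusted p = 0.138), bounded as at least 1.34-fold lower. Pam, the enzyme that amidates the ends of peptide hormones, was at -3.18, -3.27 and -3.22 in the wild type and at -0.58, -0.77 and -0.35 in the knockout. Its arrays were tight within each group and far apart between them, with a difference of 2.66 (SE 0.40, adjusted p = 0.235). A second Pam probe, above background on all arrays, differed by -0.01, so the probes of this gene disagree.

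Stk25, a serine/threonine kinase, was at 4.50, 4.15 and 4.14 in the wild type and at 2.74, 2.25 and 2.41 in the knockout. This was a difference of -1.79 (SE 0.37, adjusted p = 0.513) without overlap, and a second probe gave -1.97. Rab7b, a small GTPase of endosomal traffic, was lower in the knockout by a difference of -1.38 (SE 0.27), with the wild type at 0.16, 0.74 and 0.79 and the knockout at -0.59, -0.89 and -0.98. Its neighbour Pm20d1, an enzyme that joins fatty acids to amino acids, was higher instead. Its levels were 0.90, 0.15 and 0.35 in the wild type and 1.56, 1.44 and 1.49 in the knockout, a difference of 1.03 (SE 0.21). Ddx59, an RNA helicase, was higher by 0.57 (SE 0.13), from -2.93, -2.74 and -2.91 to -2.30, -2.34 and -2.23. Neighbouring genes thus differed in opposite directions, without overlap between the groups in either.

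The 8 chromosome 1 genes differed in the same direction in other mice, though not all by the same amount. Their groups did not overlap on IIAEK, which fixes the direction within either slide, so the slides compare only the size. Within slides 1 and 2, the difference was 2.51 and 2.89 for Pam, -2.13 and -2.93 for Glrp1, -2.0 and -1.73 for Stk25 and 0.61 and 0.59 for Ddx59. Rab7b, at -0.90 and -1.75, and Pm20d1, at 0.60 and 1.24, had the larger difference on slide 2, as Alppl2 and Alpi did. Between the vehicle groups it was 1.84 for Pam, -2.11 for Glrp1, -1.18 for Stk25, -0.79 for Rab7b, 1.27 for Pm20d1 and 0.75 for Ddx59. All 8 of these chromosome 1 genes, the targeted Akp3 and its neighbour Alppl2 among them, had the same sign on vehicle as on IIAEK. Of the 8, 6 had an unadjusted p under 0.05 there, and Akp3 and Alppl2 did not. Of the other 12 genes, 5 had the same sign on vehicle and 2 such a p. Over all genes tested the sign was the same for 37.6%. In the vehicle comparison 11.4% of all genes had a p under 0.05.

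**Figure D2:**
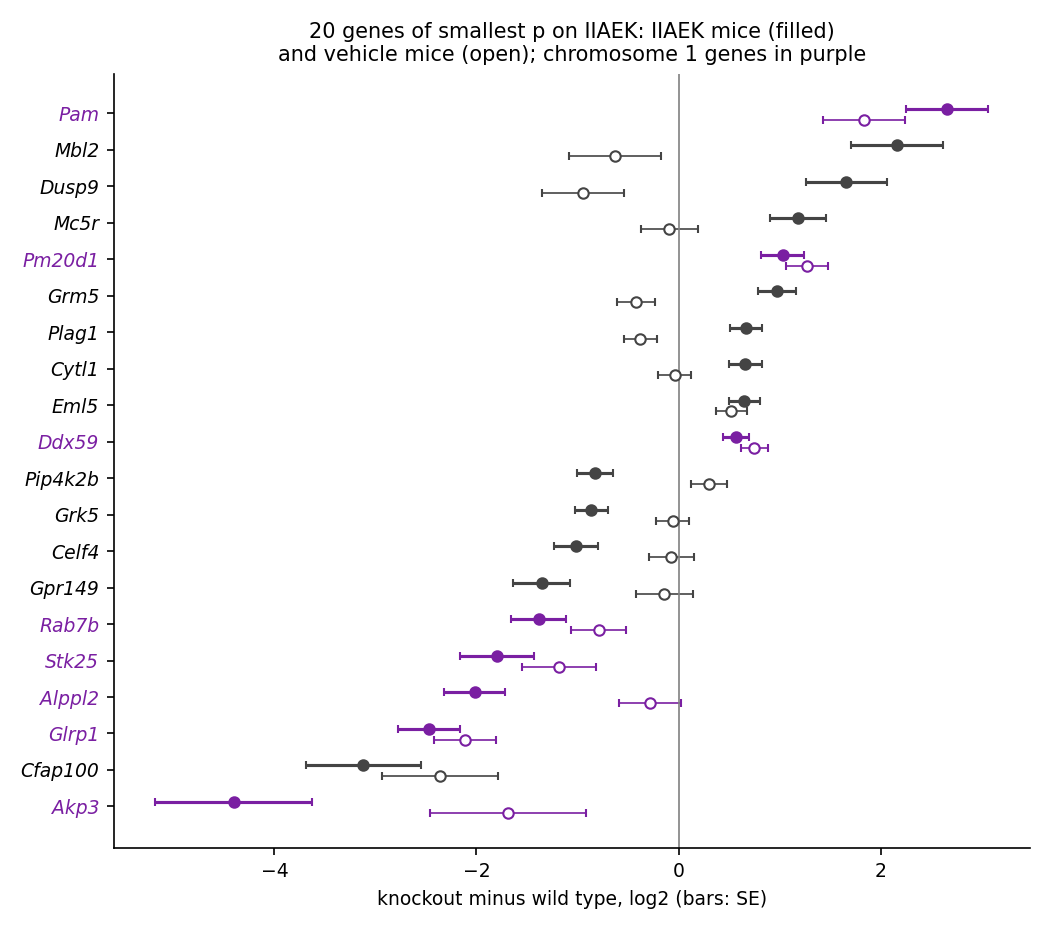
Knockout minus wild-type difference (log2, bars SE) of the 20 characterised genes with the smallest p on IIAEK, in the IIAEK mice (filled) and in the vehicle mice (open), with chromosome 1 genes in purple. The 8 purple genes, the targeted Akp3 among them, fall on the same side of 0 in both sets of mice. Of the other 12 genes, 5 do so.

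Chromosome 1 as a whole held more genes with a small p than the other chromosomes. Of its 908 tested genes 105 (11.6%) had an unadjusted p under 0.05, 45 higher and 60 lower, against 6.18% of the 14878 genes elsewhere and 6.49% of all genes with a position. The next highest share, leaving aside the 10 genes of chromosome Y, was 7.7%, on chromosome 15. Of the 18 positioned genes with p under 0.001, 9 were on chromosome 1. The targeted Akp3 and its neighbours Alppl2 and Alpi are among these 9 and count in the 105. Without wild-type replicate 3 the shares were 6.28% and 2.76%, and without knockout replicate 3 they were 8.15% and 3.73%. On vehicle they were 15.4% and 12.9%. The share was lower in wider windows around Akp3, counted in tested genes. It was 25% among the 10 genes on either side, 22% among 25, 18% among 50, 17.5% among 100 and 14.8% among 200. Among the 707 genes of the chromosome that lay over 100 genes away it was 9.76%. The windows are nested, and the phosphatase genes Alppl2 and Alpi count in each and weigh most in the smallest. The 5 genes with a p under 0.05 among the nearest 20 were all lower in the knockout, these phosphatases included. On vehicle the shares in these windows showed no such decline, at 15%, 14%, 16%, 15% and 18%. Of the genes with a p under 0.05 on IIAEK, 49.5% on chromosome 1 and 27% elsewhere had the same sign on vehicle.

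The nearest genes give the pattern in detail. The 5 were Alppl2, Alpi, Eif4e2, which encodes a cap-binding translation factor, Ngef, a guanine nucleotide exchange factor, and Inpp5d, the lipid phosphatase SHIP1 of blood cells. Ngef was at 2.43, 2.38 and 2.62 in the wild type and at 2.0, 1.89 and 2.06 in the knockout, a difference of -0.50 (SE 0.16). It did not overlap, differed by -0.49 and -0.44 within the slides and by -0.43 on vehicle. Eif4e2 differed by -0.56 without overlap and by -0.37 on vehicle. Inpp5d also differed by -0.56, with overlap, but by 0.57 on vehicle. Between and around these lay genes with small differences. Examples were Ptma, which encodes prothymosin alpha (-0.00, SE 0.12), and Atg16l1, which encodes an autophagy protein (-0.14). Others differed more, with overlap: B3gnt7 by -0.69, Kcnj13 by 0.55 and Scarna6 by 0.50. The probes of Armc9 disagreed: the brightest differed by -0.42 and the others by -0.53 and 1.29. The last did not overlap and differed by 2.38 on vehicle.

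The gene next to Akp3, Ecel1, which encodes a relative of endothelin-converting enzyme, had probes that disagreed. The brighter probe differed by -0.15. The other was at -4.53, -2.99 and -2.63 in the wild type on IIAEK and below background in the knockout at -7.67, -7.41 and -8.00, a difference of -4.31 bounded as at least 4.41-fold lower. On vehicle it was above background on 3 of 3 wild-type and 0 of 3 knockout arrays, with a difference of -2.94. When each probe was tested on its own, this was the only one of 34399 to pass the threshold, with an adjusted p of 0.0136. It was singled out after its values were seen.

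Chromosome 1 also held genes whose difference on IIAEK was much larger within slide 2 than within slide 1, with its 1 wild-type IIAEK array. Etnk2, an ethanolamine kinase, and Ren2, a second renin gene that only some mouse strains carry, were named after their values were seen. Etnk2 was at -3.00, -5.87 and -6.29 in wild-type replicates 1, 2 and 3 and at -1.76, -2.22 and -1.76 in the knockout. Ren2 was at -2.27, -4.24 and -4.60 in the wild type and at -0.73, -1.26 and -0.43 in the knockout. For both genes the wild-type replicate on slide 1 lay nearer to the knockout than to the other two wild-type arrays, although no array overlapped. The differences were 3.14 (SE 0.81) and 2.90 (SE 0.81), or 1.01 and 1.28 within slide 1 against 4.33 and 3.99 within slide 2. On vehicle they were 1.85 and 2.30, and there wild-type replicate 3 lay within the range of the knockout, at -3.11 and -1.63. That vehicle array lay on slide 2, while vehicle wild-type replicate 1, on slide 1, was at -5.87 and -4.63. The probe of Ren2 may also bind the transcript of the closely related Ren1.

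**Figure D3:**
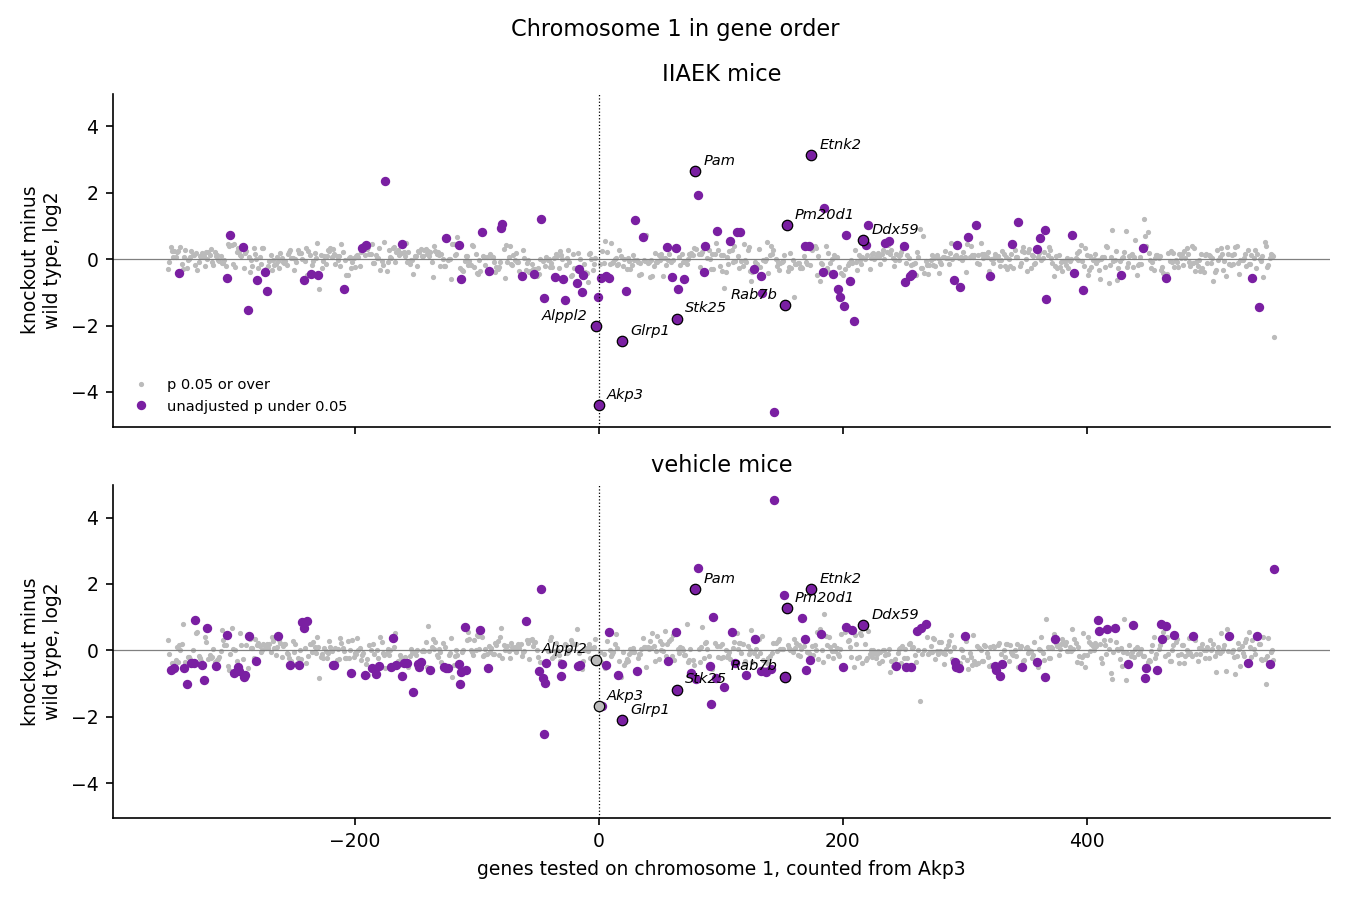
Knockout minus wild-type difference (log2) of the 908 tested genes of chromosome 1 in gene order, counted from Akp3 at 0 on the x axis, in IIAEK mice (top) and vehicle mice (bottom); purple marks an unadjusted p under 0.05 and a black edge the labelled genes. On IIAEK all 5 such genes among the nearest 20 lie below 0, and Pam lies above and Glrp1 below 0 in both panels.

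Of the 12 genes on other chromosomes, the 5 with the same sign on vehicle were a share close to that of all genes. Mbl2, mannose-binding lectin, a soluble protein that recognises microbial sugars, was at 3.30, 3.76 and 3.33 in the wild type and at 5.14, 5.36 and 6.38 in the knockout. The groups did not overlap and the difference was 2.17 (SE 0.46, adjusted p = 0.550), with 1.95 and 2.84 within the slides. On vehicle the difference was -0.63, and the interaction was 2.80 with an unadjusted p of 0.0011 by limma. Dusp9, a phosphatase that inactivates MAP kinases, was below background in all 3 wild-type arrays and above it in all 3 knockout arrays, a difference of 1.66 bounded as at least 1.94-fold higher. It differed by -0.95 on vehicle. With slide as a block its difference was 1.96 and its adjusted p 0.0378, and with normexp its difference was 0.37.

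The other 5 of the 10 higher genes had group means below the 75th percentile of the arrays. Grm5, a metabotropic glutamate receptor, was higher by 0.98 (SE 0.19), at -4.22, -4.20 and -4.54 in the wild type and -3.44, -3.46 and -3.14 in the knockout. Mc5r, a melanocortin receptor, was above background on 2 of 3 wild-type arrays and on 3 of 3 knockout arrays, and was higher by 1.18 (SE 0.28). The vehicle differences were -0.42 and -0.09. Plag1, a zinc finger transcription factor, Cytl1, a cytokine-like secreted protein, and Eml5, a microtubule-associated protein, were higher by 0.67, 0.66 and 0.65. Of these Eml5 differed in the same direction on vehicle, by 0.52.

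Among the genes that were lower, Cfap100, which encodes a protein of cilia and flagella, differed in both treatments. It was at -3.88, -3.70 and -3.90 in the wild type and below background at -7.19, -7.21 and -6.43 in the knockout, a difference of -3.12 (SE 0.57, adjusted p = 0.390) bounded as at least 3.25-fold lower. It differed by -3.32 and -2.63 within the slides and by -2.36 on vehicle. A second probe was below background on every array, and with normexp the difference of the first was -0.57. Gpr149, an orphan receptor, differed by -1.35 (SE 0.28), Celf4, a neuronal RNA-binding protein, by -1.02 (SE 0.22), Grk5, a kinase that turns off G protein-coupled receptors, by -0.86 (SE 0.16) and Pip4k2b, a phosphoinositide kinase, by -0.83 (SE 0.18). None of these overlapped between the groups on IIAEK. On vehicle they differed by -0.14, -0.07, -0.06 and 0.30.

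Lists of genes for the pathways and cell types of the gut are described next by their counts and medians. The median over all genes was 0.02 on IIAEK and -0.03 on vehicle. The peptidases of the brush border, which cut peptides at the surface of the enterocyte, had a median of 0.56, with 11 of 12 members above 0. At an unadjusted p under 0.05 there were 4 higher and 0 lower. Enpep, glutamyl aminopeptidase, was at 3.93, 3.26 and 2.91 in the wild type and at 3.93, 4.36 and 4.98 in the knockout, a difference of 1.06 (SE 0.33). Dpp4, which removes dipeptides from peptide ends, was at 3.98, 3.54 and 3.16 and at 3.69, 4.51 and 4.72, a difference of 0.75 (SE 0.31). For both genes the highest array was knockout replicate 3 and the lowest wild-type replicate 3, both on slide 2. Without that knockout array the difference was 0.78 for Enpep and 0.54 for Dpp4, and without that wild-type array 0.83 and 0.55. Xpnpep2 and Mep1a, an aminopeptidase and a meprin subunit, differed by 0.85 and 0.74. Tmprss15, enteropeptidase, which activates pancreatic trypsinogen, was the 1 member below 0, at -0.92.

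Transporters that take up the products of these enzymes were on the same side. All 13 tested members were above 0, between 0.11 and 0.54, with a median of 0.34 and 2 members at a p under 0.05. The peptide transporter Slc15a1 differed by 0.51 and Slc6a19, the main carrier of neutral amino acids, by 0.54 (SE 0.23), at 3.29, 2.72 and 2.45 in the wild type and 3.29, 3.47 and 3.33 in the knockout. Slc7a7 and Slc3a1, carriers of basic amino acids and cystine, differed by 0.42 and 0.44. Slide 1 gave a median of -0.01 for the peptidases and 0.06 for the transporters, against 1.08 and 0.54 from slide 2. On vehicle the medians were -0.43 and -0.11. Without wild-type replicate 3, 1 peptidase and 0 transporters had a p under 0.05, and without knockout replicate 3 the numbers were 1 and 2.

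The lists of lipid handling had medians near that of all genes. Intestinal sterol transport had a median of -0.01, with 6 of 15 members above 0, and 1 at a p under 0.05. That was Scarb1, a receptor for high-density lipoprotein and a route of sterol uptake. It was at -0.66, 0.53 and -0.15 in the wild type and -1.0, -0.63 and -1.46 in the knockout, a difference of -0.94 (SE 0.36). Its groups overlapped, and it differed by -0.16 within slide 1, by -1.65 within slide 2 and by 0.55 on vehicle. Cd36, the fatty acid receptor, spread from -0.83 to 1.90 in the wild type and from 1.09 to 3.20 in the knockout, with overlap and a difference of 1.49 (SE 0.74), or 0.73 without wild-type replicate 3. Cholesterol synthesis had a median of -0.04, with 2 of 24 members higher and 1 lower at a p under 0.05. Msmo1, a sterol C4-methyl oxidase, differed by 0.81, and Nsdhl, which removes the carbons that Msmo1 oxidises, differed by -0.45. Both overlapped between the groups. Without wild-type replicate 3, or without knockout replicate 3, the list had 0 members at such a p. Chylomicron assembly had a median of 0.13 and no member of 17 at a p under 0.05. Dgat2, which completes triglycerides, was at 5.59, 5.57 and 5.45 in the wild type and at 5.87, 5.98 and 5.86 in the knockout, a difference of 0.37 without overlap.

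Genes of endotoxin sensing, the pathway of the substrate that intestinal alkaline phosphatase dephosphorylates, were near the median of all genes. The list had 22 of 26 members tested and a median of -0.10, with 17 below 0 and 1 at a p under 0.05. That was Tnf, tumour necrosis factor, at -3.42, -3.13 and -3.50 in the wild type and -3.66, -3.75 and -3.71 in the knockout. Its difference was -0.36 (SE 0.16) without overlap, or -0.11 with normexp. A second Tnf probe differed by -1.24 with overlap, at -5.40, -4.11 and -4.66 in the wild type and -4.71, -5.16 and -8.03 in the knockout. The receptor Tlr4 and its partner Cd14 differed by -0.11 and -0.07. Lcn2, which binds bacterial siderophores, differed by 0.41 with overlap. Tight junctions and claudins had a median of -0.08 and 0 of 16 members at a p under 0.05. Cldn2, the claudin of leaky epithelia, was at 0.88, 1.09 and 1.51 in the wild type and 1.17, 0.74 and -0.14 in the knockout, a difference of -0.57 with overlap, or -0.20 without knockout replicate 3.

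Genes of B cells and of lymphoid follicles were lower in the knockout, and replicate 1 of the wild type was low as well. The B and plasma cell list had a median of -1.13, with 11 of 14 members below 0 and 6 at a p under 0.05. Fcer2a, the low-affinity receptor for immunoglobulin E on mature B cells, was at -5.59, -1.50 and -2.59 in the wild type and at -7.66, -6.04 and -7.45 in the knockout. It was above background on wild-type replicates 2 and 3 only and on no knockout array, which bounds its difference of -3.82 as at least 4.92-fold lower. Cxcr5, the receptor that brings B cells into follicles, had the same detection pattern and a difference of -3.64, at least 4.20-fold lower. Genes of antibody-secreting cells lay near 0, with differences of 0.02 for Jchain, -0.06 for Mzb1 and 0.00 for Tnfrsf17. In bulk tissue, fewer cells of a type and less RNA per cell cannot be told apart.

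The list of follicle and M cells, which sample the gut lumen above follicles, had a median of -0.80, with 11 of 12 members below 0. It held 4 lower and 1 higher at a p under 0.05. Spib, a transcription factor of M cells and B cells, differed by -1.15 and Ccl20, a chemokine of the epithelium over follicles, by -1.22. Ccl9 was the 1 member above 0, by 0.70. Slide 1 gave medians of -0.09 for the B cell list and 0.01 for the follicle list, against -2.13 and -1.49 from slide 2. On vehicle the medians were 1.22 and 0.46, with 8 of 14 B cell genes higher in the knockout at a p under 0.05, where 4.86% of all genes were. The interaction, which includes the IIAEK difference itself, had a p under 0.05 for 10 of 14 B cell genes and 7 of 12 follicle genes, and for 15.1% of all genes. Without wild-type replicate 3, 2 B cell genes and 0 follicle genes had a p under 0.05 for the difference on IIAEK, and without knockout replicate 3, 1 and 0 did. Whether the samples differed in how much follicle tissue they held was not tested.

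Antigen presentation by MHC class II had a median of -0.77, with 9 of 10 members below 0 and 4 lower at a p under 0.05. Ciita, the master regulator of class II genes, was at 1.36, 2.01 and 1.96 in the wild type and at 1.24, 1.14 and 0.14 in the knockout, a difference of -0.93 (SE 0.35) without overlap. Cd74, the invariant chain, was at 4.10, 4.72 and 4.63 and at 4.21, 4.0 and 2.46, and overlapped. Knockout replicate 3 was the lowest array for both, and without it they differed by -0.59 and -0.37. H2-Oa and H2-Ob, which modulate peptide loading in B cells, differed by -1.25 and -1.62, or by -0.62 and -1.13 without that array. Interferon-stimulated genes had a median of -0.42, with 20 of 20 members below 0 and 0 at a p under 0.05. Oasl2 and Irf7, of the antiviral response, differed by -0.82 and -0.40 with overlap, and by -0.11 and -0.11 without knockout replicate 3. Without knockout replicate 3 the interferon median was 0.01 and the class II median -0.23 with 0 members at a p under 0.05, and within slide 1 the medians were 0.46 and 0.11. Without wild-type replicate 3 the class II list had 1 such member. On vehicle the interferon median was -0.35, with 18 of 20 members below 0, and the class II median 0.02. The mean deviation of the interferon list was 0.38, 0.28 and -1.46 in vehicle knockout replicates 1, 2 and 3.

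Paneth cells secrete antimicrobial peptides at the base of the crypts. Their list had a median of 0.58, with 9 of 10 members above 0 and 1 at a p under 0.05. That member, the alpha-defensin Defa21, was at 5.66, 4.81 and 4.83 in the wild type and at 6.06, 6.38 and 8.29 in the knockout, a difference of 1.81 (SE 0.54) without overlap. Mmp7, the protease that activates defensins, also did not overlap and differed by 0.75, and Ang4, a microbicidal ribonuclease, differed by 1.0 with overlap. Lyz1, lysozyme, differed by 0.25. Knockout replicate 3 had the highest level of each of these 4 genes. Without it Defa21 differed by 1.12, Mmp7 by 0.33, Ang4 by 0.58 and Lyz1 by 0.15. The median was 0.31 without it, 0.08 within slide 1 and -0.41 on vehicle. Probes for defensins can bind transcripts of near-identical family members, so the value of Defa21 may include other defensins. Tuft cell genes had a median of -0.34 and 0 of 8 members at a p under 0.05. Without knockout replicate 3 the median was -0.09, and on vehicle it was 0.41 with 7 of 8 members above 0. The probes of Dclk1, the usual tuft cell marker, disagreed: the brightest differed by 0.25, and 2 others above background on all arrays by -0.39 and -0.19. Alox5ap, of leukotriene synthesis, differed by -0.49, or by -0.11 without knockout replicate 3.

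**Figure D4:**
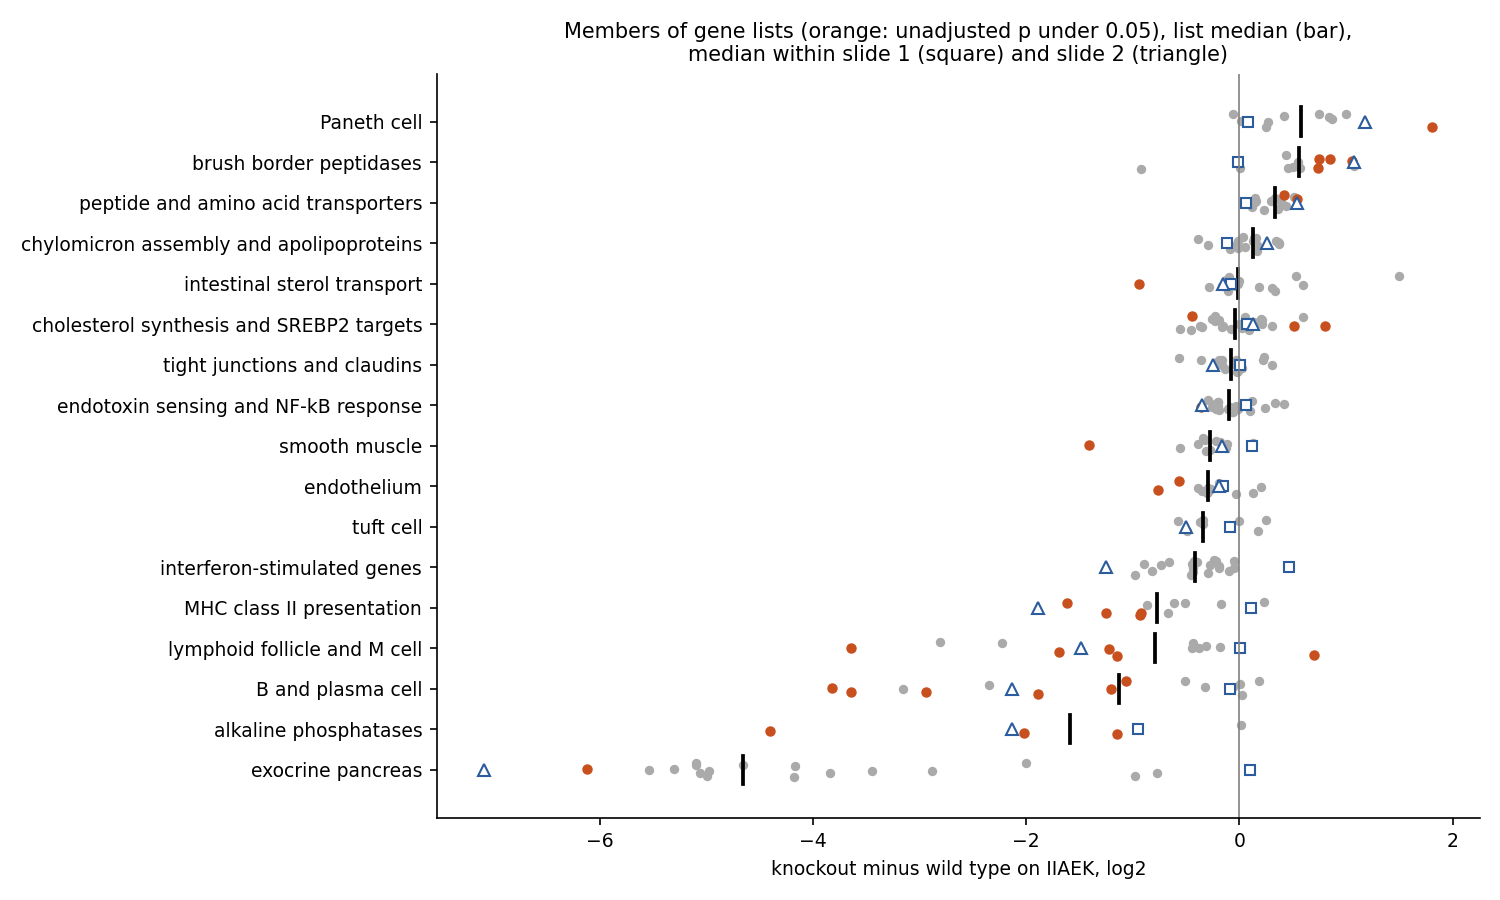
Knockout minus wild-type difference on IIAEK (log2, x axis) of each tested member of 17 gene lists, with members at an unadjusted p under 0.05 in orange, the list median as a bar, and the median within slide 1 (square) and slide 2 (triangle). For B cell, follicle, class II, interferon, Paneth and peptidase genes the square lies near 0 or on the other side of it and the triangle far from it, and for the pancreas list the triangle is at -7.08.

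Pancreatic transcripts were high on 1 of the 6 IIAEK arrays and, less so, on 1 of the vehicle arrays used for comparison. The exocrine pancreas list had a mean deviation of -1.91, 0.56 and 7.82 in wild-type replicates 1, 2 and 3 and of -1.44, -1.99 and -2.31 in the knockout. Among the vehicle arrays it was 3.59 in knockout replicate 3 and at most 0.86 in the others. All 17 members were below 0 in the comparison, with a median of -4.65, and 1 had a p under 0.05. Pnlip, pancreatic lipase, was at -5.33, -1.74 and 7.20 in the wild type and at -5.17, -5.78 and -7.28 in the knockout. The stomach gene Tff2, a trefoil peptide and the 1 tested of 9, was above 0 on the same array alone, at -6.00, -4.67 and 3.13. Without wild-type replicate 3 the pancreas median was -1.61, and Tff2 differed by -0.77 instead of -3.60. Genes of smooth muscle had a median of -0.28 and those of endothelium -0.30, with 1 and 2 members lower at a p under 0.05. Without that array the medians were 0.03 and -0.11, with 1 and 0 such members. On vehicle they were 0.66 and 0.37. Lmod1, a muscle actin regulator that lies on chromosome 1, was above background on 3 of 3 wild-type arrays and 1 of 3 knockout arrays, with a difference of -1.41 that was -0.23 with normexp. Plvap and Cdh5, of the vessel wall, differed by -0.76 and -0.57. The part of the pancreatic and muscle tissue in the other differences was not tested.

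**Figure D5:**
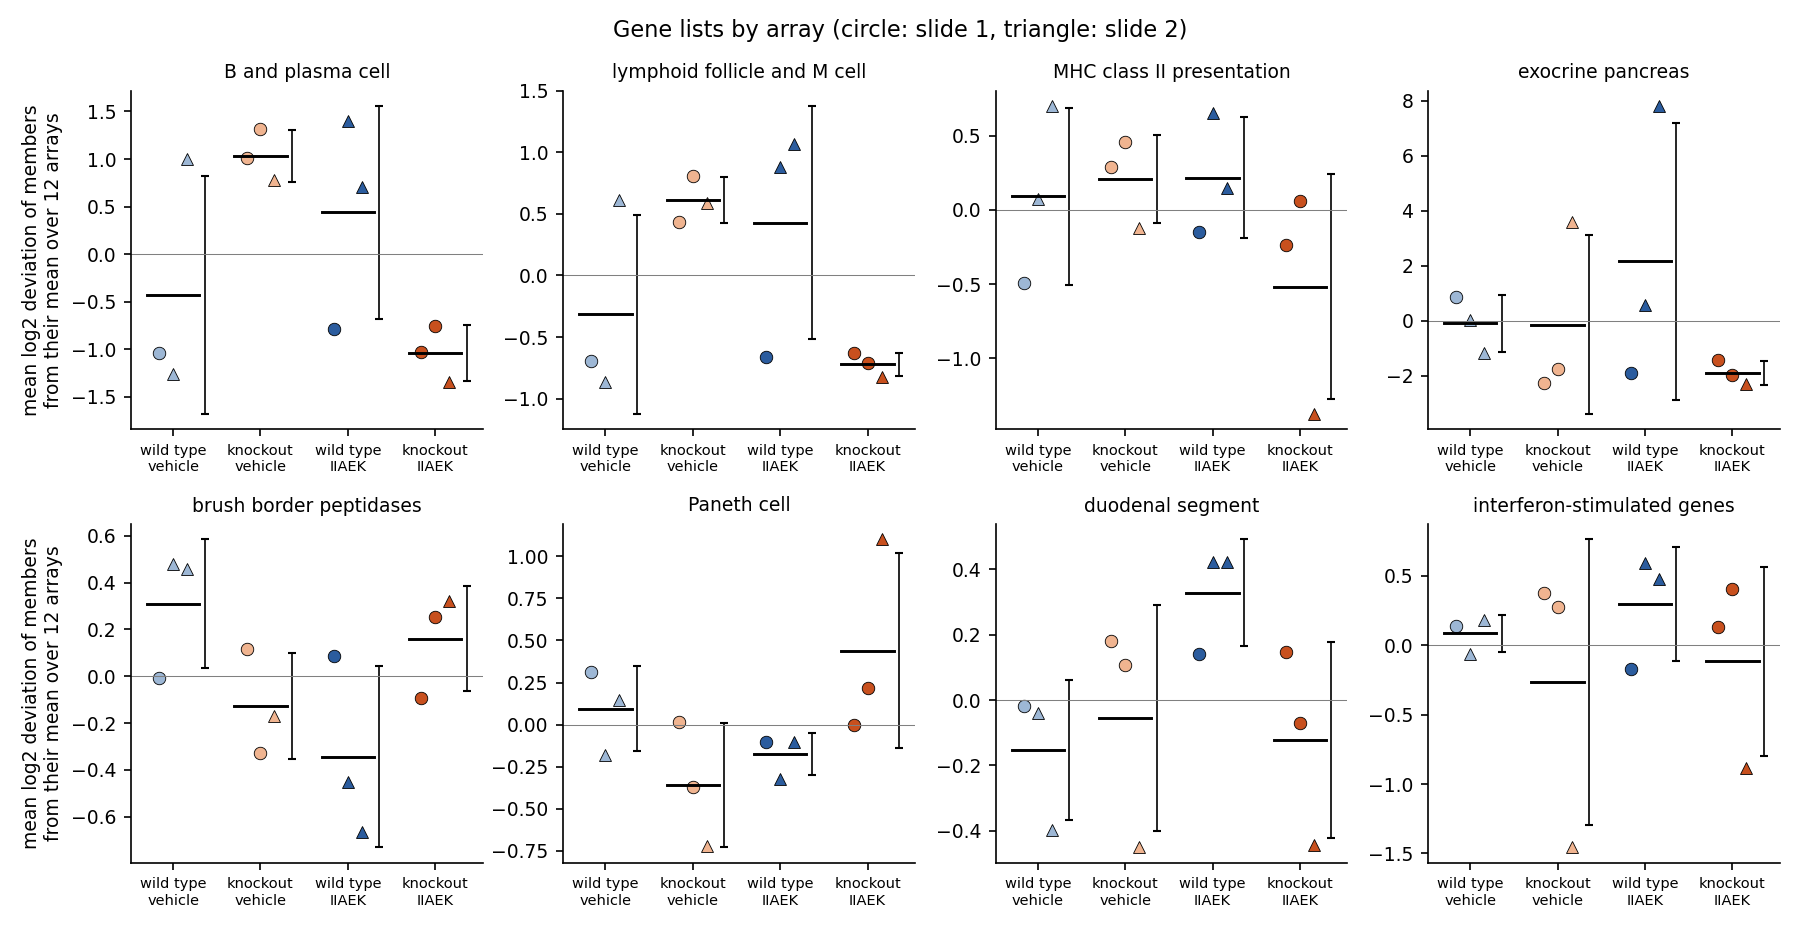
Mean log2 deviation of the members of 8 gene lists from their mean over the 12 arrays, by array and group; circles are slide 1, triangles slide 2, bars group means and whiskers SD (n = 3). The B cell score of wild-type IIAEK replicate 1 lies with the knockout at -0.79, the pancreas score of replicate 3 is 7.82, and the class II score of knockout replicate 3 is -1.37.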

How the data were processed

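Mouse jejunum RNA was labelled with Cy3 and hybridised to 1-colour Agilent arrays, per the labels' protocols. Per the file headers, Feature Extraction 10.7.3.1 made the deposited signals: the authors' files hold each spot's background-subtracted intensity, not scaled between arrays. The deposited value table, on a log2 scale, was used only as an alternative, and its scaling to the 75th percentile and centring of probes are not stated and were found from its values, while its direction follows the scanner values. Its column medians lay between -0.0797 and 0.149.

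From the intensity, log2 was taken, spots of a probe were averaged after 0 to 4 outlier spots per array were left out, and each array's 75th percentile was then set to 0. No spot was saturated. Names came from RefSeq accessions on GRCm38.p6, which gave a symbol to 32994 of 56605 probes; the array headers name build mm9, so gene positions served only for gene order, and 16 tested genes on unplaced or alternate sequences were left out of it. The brightest probe stood for a gene. A gene was tested when well above background on all 3 arrays of 1 group: 27555 genes, 15804 with symbols.

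The 4 group means of all 12 arrays were fitted together with limma 3.58.1 in R 4.3.3, two-sided, on 8 residual and 3.37 prior degrees of freedom, with Benjamini-Hochberg adjustment over all genes tested. The scripts were tested on simulated data. An exact permutation test of 3 arrays against 3 cannot give a p below 0.1. The number of arrays limits the precision.

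Genes named are the 4 alkaline phosphatases, the 10 with the smallest p in each direction since none passed the threshold, up to 4 members of smallest p of a described list, and the 10 tested neighbours on either side of Akp3; uncharacterised names were left out of the second group, and genes named for their place in a list or on chromosome 1 beyond that were picked after their values were seen. A list was described where its median lay 0.3 from that of all genes, or always for sterol transport, cholesterol synthesis, chylomicron, endotoxin, peptidase and junction genes; the duodenal list was added after its values were seen. The members and the 43 lists were chosen with earlier results of these data known. Replicate numbers did not pair the mice. Alternatives were quantile normalization, normexp, the value table, other probe filters, slide or replicate number as a block, the 6 arrays alone and each array left out; leaving out wild-type or knockout replicate 3 for list and chromosome counts, and p under 0.001 for chromosome counts, were chosen after seeing the data. Some list members are counted but not reported by name here.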

Additional observations from a re-analysis of the deposited data

How the results depend on the processing

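No gene passed the threshold in the comparison. In other fits, the numbers past it were 1 lower when every probe was tested, 2 higher and 2 lower with the 6 IIAEK arrays only, and 1 higher with slide as a block; leaving out 1 array gave 0 to 2 higher and 0 to 2 lower, the array being vehicle wild-type 3 (2 higher), IIAEK wild-type 1 (1 and 1) or vehicle knockout 1 (2 lower). At an unadjusted p under 0.05, normexp gave 1948 higher and 731 lower against 1196 and 914, leaving out IIAEK wild-type 3 gave 490 and 520, IIAEK knockout 3 447 and 1026, and IIAEK knockout 1 2726 and 1948. Akp3 kept its direction in all alternatives, with limma's adjusted p of 0.078 to 0.999. Its difference was -5.31 to -3.92 with 1 array left out and -2.48 within slide 1. The Akp3 groups do not overlap, so leaving out 1 array or taking 1 slide could not change its direction. Alpl reversed to -0.019 with quantile normalization and to -0.30, -0.084, -0.14 and -0.053 without 1 of 4 IIAEK arrays, over a range of -0.30 to 0.42 with 1 array left out; the cause was not tested. With the replicate number as a block, 0 genes passed, 1161 were higher and 1063 lower at an unadjusted p under 0.05, and Akp3 had an adjusted p of 0.476. The numbers do not pair the mice, since deviations of equal numbers correlated at -0.115, 0.165 and -0.065. No interaction passed in any fit. Genes below background have only bounds, and 3 mice a group limit the rest.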
